A study of Saccharomyces cerevisiae with 6 samples.

Results

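The genes described here are 10 regulators of Start, the step in late G1 at which a budding yeast cell commits to a new division cycle. They are the G1 cyclin genes CLN1, CLN2 and CLN3, the cyclin genes PCL1 and PCL2, the inhibitor genes WHI5 and SIC1, and the transcription factor genes SWI4, SWI6 and MBP1. They were picked by gene symbol as known regulators of Start, with earlier results of these data known, and all 10 were found, each with 1 probe set, among 5449 Saccharomyces cerevisiae genes on the arrays. RNA was measured on 6 single-colour Affymetrix arrays, 3 for each of 2 groups. All samples carried the strain label BY4743, a laboratory diploid with the label genotype MATa/α his3Δ1 leu2Δ0 met15Δ0 ura3Δ0 lys2Δ0. All had grown for 2 days at 25 °C in YPD, a rich medium, with 0.01% of the detergent SDS. RNA of the control samples was isolated by FastRNA Pro Red. The zymolyase samples were incubated for 20 min at 25 °C with zymolyase, an enzyme preparation that digests cell wall glucan, and extracted with the MagExtractor kit. Enzyme and kit changed together, so every difference below is that of both combined.

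In a new G1 cell, Whi5 holds back SBF, a transcription factor made of the DNA-binding subunit Swi4 and its partner Swi6. The cyclin Cln3, with the kinase Cdc28, acts upstream to relieve that block, and SBF then drives CLN1, CLN2, PCL1 and PCL2. A sister factor, MBF, pairs the same Swi6 with the DNA-binding subunit Mbp1 and controls many DNA replication genes. Sic1 inhibits the S phase form of Cdc28 and is destroyed once Cln1 and Cln2 kinase activity has marked it. Pcl1 and Pcl2 are cyclins of another kinase, Pho85.

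Signal intensity is given on the linear MAS5 scale, on which every array had a common trimmed mean in the deposited values. A change is the mean log2 signal of the zymolyase arrays minus that of the control arrays. Its standard error (SE) and p-value come from limma, adjusted by Benjamini-Hochberg over all 5449 genes with a threshold of 0.05. Probe sets differ in brightness for reasons of their own, so levels are compared between arrays and not between genes. All 10 genes lay above the background on all 6 arrays, with signals from 29.9 to 2048.4, where the background, the 95th percentile of probe sets of the array's second yeast species, was at most 10.9.

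Some facts of the arrays touch these genes. The arrays numbered 1 stood apart in both groups: their deviations from the group means correlated at -0.70 to -0.75 across genes with those of the other arrays of their group, which correlated with each other at 0.06 in control and 0.04 in zymolyase. Deviations from a mean of 3 arrays sum to 0, so correlations well below 0 are built in, and the contrast between these values is what sets the arrays numbered 1 apart. The 3′ over 5′ signal ratio of 8 control genes lay between 1.49 and 1.99 in control and between 4.57 and 7.21 in zymolyase arrays. Over 10 equal length classes the median change was -0.11 in the shortest and -0.33 in the second, and from there it rose with length to 0.60 in the longest. A diploid of both mating types, as the label states, represses alpha-specific, a-specific and haploid-specific genes. The signals were 1485.4 to 7412.3 for the 4 alpha-specific genes, 282.0 to 2586.6 for 8 haploid-specific genes and 8.0 to 133.8 for the 7 a-specific genes. The alpha-specific and haploid-specific genes were thus far above the background of at most 10.9 on every array, which goes against the label. Of the a-specific genes, STE2, STE6, MFA1, MFA2 and BAR1 lay above the background on all 6 arrays, and AGA2 and ASG7 on 5. Some of these signals were close to the background, such as 11.7 for BAR1 on zymolyase array 1. The 5 meiosis genes, with signals of 13.5 to 153.2, lay above it on all 6 arrays too. The brightness of different probe sets is not compared, so no mating type is read from these signals. The labels do not state whether samples in a group were grown separately, and if they were not, the p-values cover technical spread alone. Precision is limited by having 3 arrays per group. RNA came from whole cultures, in which fewer cells in a phase of the cycle and less RNA per cell cannot be told apart.

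Of the 10 genes, limma called MBP1, SWI6 and SIC1 as risen and 0 as fallen, and left 7 uncalled. An unadjusted p under 0.05 was also reached by 3 rises and 0 falls. Over all genes 42.5% passed, with 22.5% higher and 20.0% lower, so the share of the 10 that passed was not above that of all genes. The groups did not overlap for 4 of the 10, of which 3 were higher and WHI5 lower, against 52.9% of all genes, 27.2% higher and 25.7% lower. The median change of the 10 was 0.27, against 0.04 for all genes. Centring each array on its median gene lowers every change by 0.16.

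**Figure D1:**
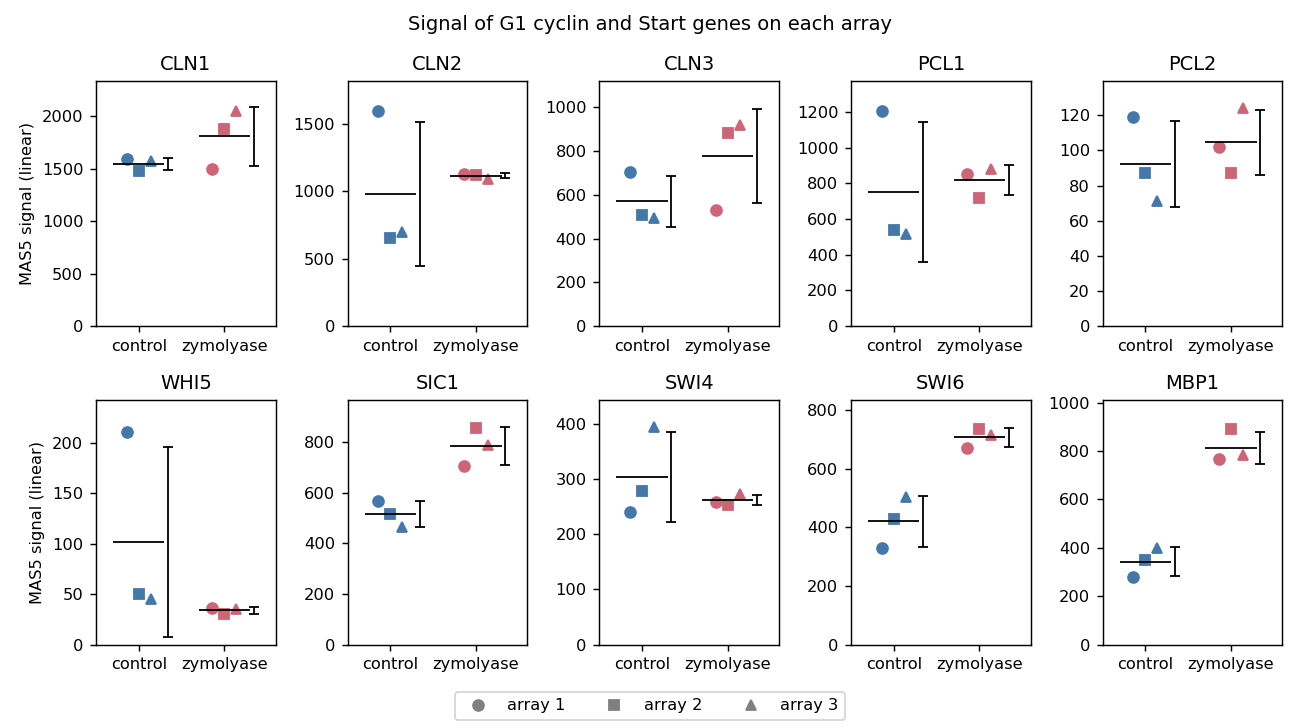
MAS5 signal (linear scale, vertical axis) of the 10 genes on the 3 control and 3 zymolyase arrays; symbols give the array number, horizontal lines the mean and bars beside them the SD (n = 3). MBP1, SWI6 and SIC1 had higher signals on all zymolyase arrays, and control array 1 lay far above its group for CLN2, PCL1 and WHI5.

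The gene for the DNA-binding subunit of MBF, MBP1 (YDL056W), had the largest rise of the 10. Its signals were 279.8, 347.5 and 398.5 on control arrays 1 to 3 and 766.7, 890.1 and 783.0 on zymolyase arrays 1 to 3. The lowest zymolyase value was well above the highest control value. The means were 341.9 ± 59.5 and 813.3 ± 67.0 (SD, n = 3), a 2.40-fold rise (log2 1.26, SE 0.18, adjusted p = 0.00172). The same-numbered arrays differed by 1.45, 1.36 and 0.97 on the log2 scale. MBP1 has a coding length of 2502 bases, and the 500 genes nearest to it in length had a median change of 0.47. With the length trend removed, MBP1 still rose, by 0.86 (adjusted p = 0.00851). Its adjusted p stayed under the threshold in all 17 alternative settings, at 2.71e-06 to 0.0111.

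The common partner subunit of SBF and MBF, SWI6 (YLR182W), also rose. Its signals were 329.3, 429.0 and 503.5 on the control arrays and 672.1, 735.2 and 715.0 on the zymolyase arrays, with no overlap. The rise was 1.71-fold (log2 0.77, SE 0.18, adjusted p = 0.0121, limma). At 2412 bases SWI6 is nearly as long as MBP1, and its 500 nearest genes in length had a median change of 0.45. With the length trend removed its change was 0.39 and no longer passed (adjusted p = 0.132), the only one of the 17 alternatives that ended this call (range 0.000979 to 0.132). The 3′ over 5′ ratio of control genes moved with the groups, by 1.74 on the log2 scale, and its part in the changes of MBP1 and SWI6 was not tested.

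SWI4 (YER111C), for the DNA-binding subunit of SBF, did not pass. Its signals were 239.8, 278.1 and 395.8 on the control arrays and 259.1, 254.2 and 272.5 on the zymolyase arrays, so that the zymolyase values lay inside the control range. The change was -0.19 with SE 0.21 (adjusted p = 0.506, limma), and the 95% interval ran from -0.67 to 0.30. Control array 3 set the sign: without it the change was 0.02. SWI4 is the longest of the 10 genes at 3282 bases, and genes of that length had a median change of 0.53. With the length trend removed SWI4 changed by -0.71 and passed as lower (adjusted p = 0.0323, the lowest of a range up to 0.945 over the alternatives).

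The signals of both DNA-binding subunits can be set against each other within each array. The log2 signal of SWI4 minus that of MBP1 was -0.18 ± 0.16 on the control arrays and -1.63 ± 0.15 on the zymolyase arrays (SD, n = 3). The highest zymolyase value, -1.52, lay far below the lowest control value, -0.32. The changes of the 2 genes thus differed by -1.45 (SE 0.13). For pairs of genes, here and below, the SE comes from the variance within each group and not from limma. A two-sided exact permutation test gave p = 0.1, which 3 against 3 arrays cannot go below (0.2 adjusted over the 4 pairs of genes compared). Leaving out any single array gave -1.36 to -1.52. Genes as long as SWI4 had a slightly higher median change (0.53) than genes as long as MBP1 (0.47).

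SIC1 (YLR079W), for the inhibitor of S phase Cdc28 kinase, rose by a smaller amount. Its signals were 568.7, 517.1 and 464.4 on the control arrays and 704.6, 856.9 and 789.8 on the zymolyase arrays. The groups did not overlap, and the change was 1.52-fold (log2 0.60, SE 0.15, adjusted p = 0.0158, limma). SIC1 is a short gene of 855 bases, and the 500 genes nearest in length had a median change of -0.25. With the length trend removed its rise was 0.82 (adjusted p = 0.00608). The call was lost with median centring (0.44, adjusted p = 0.0517) and quantile normalization (0.46, 0.0568). Leaving out either group's array 2 or array 3 also ended it, at adjusted p of 0.0551 to 0.0670, where the lowest of all alternatives was 0.000196.

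WHI5 (YOR083W), for the inhibitor of SBF, read lower on every zymolyase array than on any control array, by a size that rested on 1 control array. The signals of this dim probe set were 210.7, 49.6 and 45.6 on the control arrays and 36.3, 29.9 and 35.1 on the zymolyase arrays. Control array 1 read more than 4 times the other control arrays, which were themselves only modestly above the zymolyase arrays. The change was -1.21 (SE 0.56, adjusted p = 0.114, limma), with a 95% interval from -2.50 to 0.07. Without control array 1 it was -0.50 (adjusted p = 0.173). With the array number as a block WHI5 passed as lower (adjusted p = 0.0396, in a range up to 0.252 over the alternatives), although the same-numbered arrays differed by -2.54, -0.73 and -0.38.

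Within arrays, the log2 signal of SIC1 minus that of WHI5 was 2.72 ± 1.12 on the control arrays and 4.54 ± 0.28 on the zymolyase arrays (SD, n = 3). The difference of 1.82 (SE 0.66) reached the smallest exact permutation p of 0.1, or 0.2 adjusted over the 4 pairs. Without control array 1 it was 1.17.

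The 3 G1 cyclin genes did not pass, and for each of them zymolyase array 1 read lower than control array 1 while the other zymolyase arrays read higher than the same-numbered controls. CLN1 (YMR199W), which with Cln2 drives bud emergence and the destruction of Sic1, had signals of 1588.2, 1479.0 and 1574.4 on the control arrays and 1494.6, 1883.6 and 2048.4 on the zymolyase arrays. Zymolyase arrays 2 and 3 lay above all control arrays, while zymolyase array 1 lay among them. The change was 0.21 (SE 0.16, adjusted p = 0.307, limma), with a 95% interval of -0.15 to 0.58.

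Its paralog CLN2 (YPL256C) had signals of 1596.5, 651.2 and 696.1 on the control arrays and 1132.6, 1121.6 and 1095.0 on the zymolyase arrays. The zymolyase arrays were nearly equal, whereas control array 1 was more than 2 times as bright as the other controls. The change was 0.31 (SE 0.32, adjusted p = 0.465), with a 95% interval of -0.43 to 1.06. Without control array 1 CLN2 passed as higher, at 0.73 (adjusted p = 0.00549, where the alternatives spanned 0.000168 to 0.870).

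CLN3 (YAL040C), the upstream cyclin, had signals of 705.6, 508.5 and 495.9 on the control arrays and 531.6, 881.1 and 919.5 on the zymolyase arrays. Here array 1 was the highest of the control group and the lowest of the zymolyase group. The change was 0.43 (SE 0.25, adjusted p = 0.208, limma), with a 95% interval of -0.16 to 1.01. CLN3 passed as higher without zymolyase array 1, at 0.68 (adjusted p = 0.0266, in a range from 4.18e-05 to 0.480).

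Of the Pho85 cyclin genes, PCL1 showed the same layout, and PCL2 the same signs with almost no difference on the arrays numbered 2. PCL1 (YNL289W) had signals of 1206.1, 536.6 and 517.2 on the control arrays and 851.9, 719.9 and 878.5 on the zymolyase arrays, again with control array 1 far above the other controls. Its change was 0.23 (SE 0.32, adjusted p = 0.593, limma), and without control array 1 it passed as higher at 0.63 (adjusted p = 0.0150, in a range from 0.00188 to 0.974). PCL2 (YDL127W) was a dim probe set, with 119.1, 87.0 and 70.9 on the control arrays and 102.2, 87.4 and 124.0 on the zymolyase arrays. These values overlapped throughout, and the change was 0.20 (SE 0.26, adjusted p = 0.565).

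**Figure D2:**
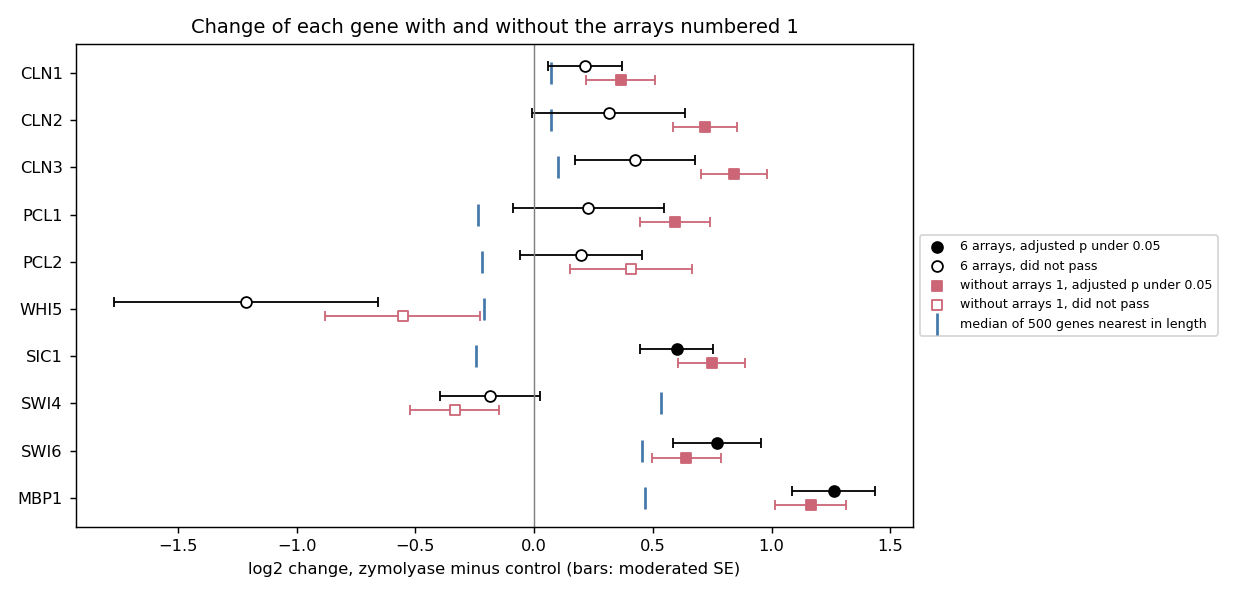
Log2 change of each gene, zymolyase minus control, with bars for the moderated SE, from all 6 arrays (circles) and without both arrays numbered 1 (squares); filled symbols passed an adjusted p of 0.05, and vertical ticks give the median change of the 500 genes nearest in coding length. CLN1, CLN2, CLN3 and PCL1 passed without the arrays numbered 1 and not with all 6.

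Between the cyclin genes the signs over arrays were alike. On the arrays numbered 1, the zymolyase value minus the control value was -0.09 for CLN1, -0.50 for CLN2, -0.41 for CLN3, -0.50 for PCL1 and -0.22 for PCL2, on the log2 scale. For all 5 genes it was above 0 on the arrays numbered 2 and on those numbered 3, reaching 0.89 for CLN3. For the dim PCL2 it was only 0.0066 on the arrays numbered 2, which is almost no difference. Genes other than cyclins, such as CKS1 and YOX1, had the same signs, so the layout was not particular to the cyclins. Its share over all genes was not counted. Without both arrays numbered 1, 7 of the 10 genes were higher and 0 lower, where 61.0% of all genes passed, 32.6% as higher and 28.3% as lower. The additional 4 were CLN3, at 0.84 (adjusted p = 4.18e-05), CLN2, at 0.72 (adjusted p = 0.000168), PCL1, at 0.59 (adjusted p = 0.00188), and CLN1, at 0.36 (adjusted p = 0.0360). These fits have 2 arrays per group. Without control array 1 alone, 5 of the 10 were higher, where 45.2% of all genes passed, 24.8% as higher and 20.5% as lower. With array weights in the fit, 8 of the 10 were higher, where 62.3% of all genes passed, 33.5% as higher. With the array number as a block, SIC1, SWI6 and MBP1 were higher and WHI5 lower, where 58.6% of all genes passed. With the length trend removed, SIC1 and MBP1 were higher and SWI4 lower, where 37.0% of all genes passed, 17.7% as higher and 19.3% as lower.

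The responses of the paralogs could not be told apart. The log2 signal of CLN2 minus that of CLN1 changed by 0.10 (SE 0.42, exact permutation p = 0.8, and 1 adjusted over the 4 pairs). For PCL2 minus PCL1 the change was -0.03 (SE 0.22, exact permutation p = 1). The sign of both depended on which array was left out. The control arrays alone spread from -1.18 to 0.01 for CLN2 minus CLN1, wider than the difference between the groups.

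**Figure D3:**
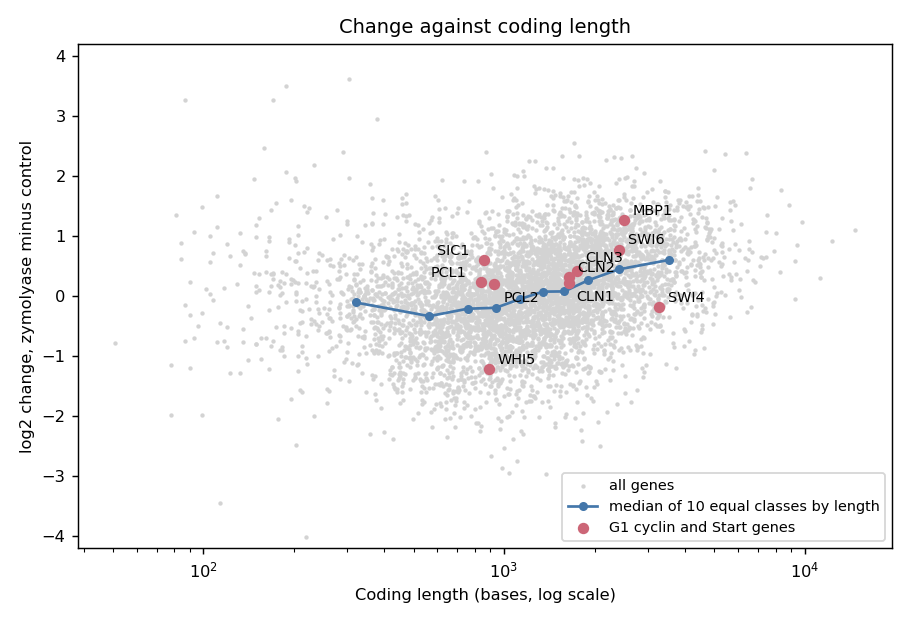
Log2 change, zymolyase minus control, against coding length in bases (log scale) for all 5449 genes (grey), with the median of 10 equal length classes (blue line) and the 10 Start genes (red). SWI4 and WHI5 lay below the median of genes of their length, and all other Start genes above it.

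The partners of these regulators changed in both directions. Of 13 other Start regulators 1 rose, 2 fell and 10 did not pass, with a median change of -0.07. Over all genes 22.5% rose and 20.0% fell. STB1, a partner of Swi6 at Start, rose by 0.93 (SE 0.26, adjusted p = 0.0239), a call that ended when array 2 or 3 of either group was left out (adjusted p 6.14e-05 to 0.0786 over all alternatives). CDC28, the kinase of the G1 cyclins, fell 1.54-fold, from 1432 ± 34.7 to 930.6 ± 33.0 (SD, n = 3; adjusted p = 0.00629). WHI3, an RNA-binding protein that restrains Cln3, fell by 0.82 (adjusted p = 0.0270), lost without any of 4 single arrays (control 1 or 3, zymolyase 1 or 3, with 0.00232 to 0.0968 over all alternatives). BCK2, an activator of G1 genes that acts beside Cln3, had a change of 0.92 (adjusted p = 0.0556) and passed with the array number as a block (0.00106, in a range from 4.27e-05 to 0.258). FAR1, the inhibitor of Cln kinase in the pheromone response, had a change of -0.13 (adjusted p = 0.726), with a sign that turned without control array 1.

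Of the kinase gene PHO85 and its 8 other cyclins, limma called 5 as fallen and 0 as risen, with a median change of -0.53, where 20.0% of all genes fell. An unadjusted p under 0.05 was also reached by 5 falls and 0 rises. PCL8, a cyclin that directs Pho85 to glycogen synthase, fell 2.30-fold (log2 -1.20, SE 0.18, adjusted p = 0.00210), and PCL7 fell 1.72-fold (adjusted p = 0.0111). PHO85 itself fell by 0.73 (adjusted p = 0.0400), lost with the length trend removed (0.0856), with all probe sets tested (0.0515) and when array 2 or 3 of either group was left out (range 1.44e-05 to 0.132). The count of falls was 3 of 9 with the length trend removed, where 19.3% of all genes fell.

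Among 6 genes of SCF, the ubiquitin ligase that marks Sic1 and the G1 cyclins for destruction, 1 rose and 1 fell. The shares over all genes were 22.5% risen and 20.0% fallen. GRR1, the F-box protein that recognises Cln1 and Cln2, rose 1.94-fold (adjusted p = 0.00279), and its change was 0.40 with the length trend removed (adjusted p = 0.0762, in a range from 4.92e-06). SKP1, the adaptor subunit, fell 1.93-fold (adjusted p = 0.00946). CDC4, the F-box protein that recognises Sic1, had a change of 0.28 (adjusted p = 0.313), which turned to -0.08 with the length trend removed.

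Targets of the 2 factors were counted separately. Of 19 measured MBF targets 9 rose, 1 fell and 9 did not pass, with a median change of 0.23, where 22.5% of all genes rose. RAD27, a flap endonuclease of lagging-strand synthesis, rose 2.94-fold, from 1078 ± 89.1 to 3195 ± 521 (SD, n = 3; adjusted p = 0.00100). POL1, the catalytic subunit of DNA polymerase alpha, rose 2.61-fold (adjusted p = 0.000993), and CTF4, which ties that polymerase to the replication fork, 2.00-fold (adjusted p = 0.00263). CDC8, the thymidylate kinase, fell 1.87-fold (adjusted p = 0.0105). RNR1, the large subunit of ribonucleotide reductase, and the S phase cyclin genes CLB5 and CLB6 had changes of -0.39, -0.12 and -0.61 and did not pass (adjusted p = 0.191, 0.622 and 0.0924). RNR1 and CLB6 passed as lower with the array number as a block (0.0237 and 0.0104, in ranges of 0.0112 to 0.472 and 0.000250 to 0.271). Both also did with array weights, without zymolyase array 1 and without both arrays numbered 1. RNR1 further passed as lower with the length trend removed, and CLB6 with median centring and with quantile normalization. These targets are long, with a median of 1866 bases against 1236 for all genes. After removal of the length trend 6 rose and 2 fell, where 17.7% of all genes rose and 19.3% fell. The median was then 0.01, the same as for all genes.

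Of 14 SBF targets other than the cyclins 2 rose, 5 fell and 7 did not pass, with a median change of -0.05, where 20.0% of all genes fell. Without the arrays numbered 1, 3 of the 14 rose and 3 fell, where 32.6% of all genes rose and 28.3% fell. HO, the mating-type switching endonuclease, rose 3.81-fold, from 330.1 ± 52.3 to 1295 ± 424 (adjusted p = 0.00157), and GIN4, a bud neck kinase, 2.70-fold (adjusted p = 0.00108). Removing the length trend lowered the log2 change of GIN4 from 1.44 to 0.89, which still passed by limma (adjusted p = 0.00640). HO is also 1 of the genes that diploids of both mating types repress, of which 5 of 8 rose and 1 fell, where 22.5% of all genes rose. After removal of the length trend 17.7% of all genes rose and 19.3% fell, and of these 8 genes 2 rose and 1 fell. Others of these were FUS3, a kinase of the pheromone response, which rose 2.32-fold (adjusted p = 0.00743), and AXL1, a protease that matures a-factor, at 1.94-fold (adjusted p = 0.00195, and 0.0653 with the length trend removed, in a range from 1.19e-05). Of the a-specific genes 1 of 7 rose, the dim MFA1 for a-factor (30.3 ± 7.4 to 95.9 ± 23.3, adjusted p = 0.00350), and of the alpha-specific and meiosis genes 0 of 4 and 0 of 5 passed by limma, with 1 and 0 at an unadjusted p under 0.05. TOS4 and PLM2, paralogs with a forkhead-associated domain, fell 1.70-fold and 1.62-fold (adjusted p = 0.00967 and 0.0219), and SVS1 fell 1.46-fold (adjusted p = 0.0196). The calls of PLM2 and SVS1 were lost without control array 2 or zymolyase array 2 or 3 (0.00129 to 0.0906 for PLM2 over all alternatives), and that of SVS1 also with the length trend removed (0.146, in a range from 0.00606).

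**Figure D4:**
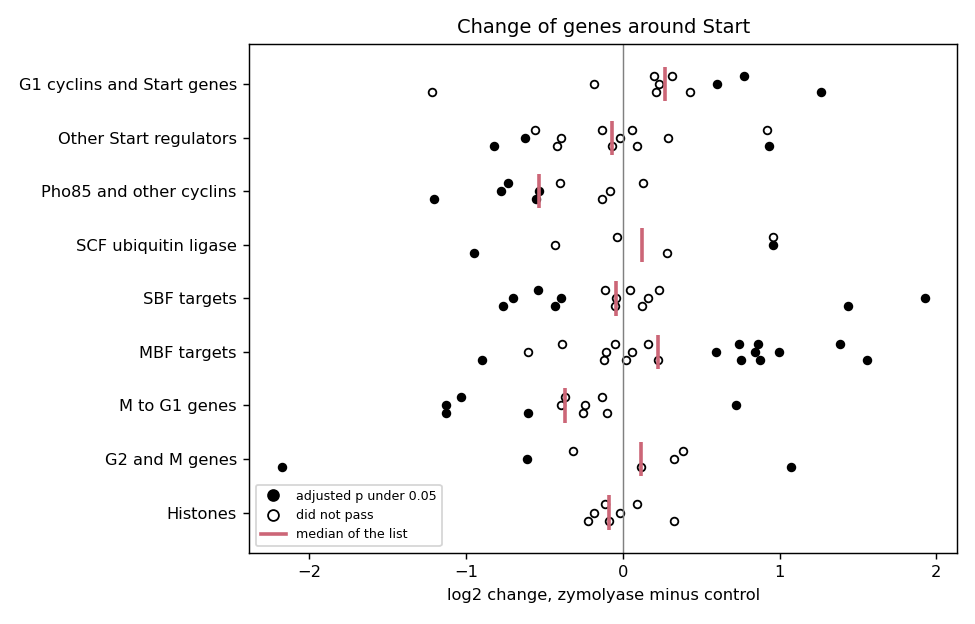
Log2 change, zymolyase minus control, of the 10 Start genes and of the related lists, 1 point per gene; filled points passed an adjusted p of 0.05 by limma, and red lines mark list medians. The MBF targets had 9 of 19 genes higher, where 22.5% of all genes were. The lowest point is CLB2, of the G2 and M genes.

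Genes of other cell cycle intervals were read beside these results. Of 11 genes of the passage from mitosis to G1, an interval in which SIC1 is also transcribed, 1 rose and 4 fell. Their median change was -0.37, and over all genes 22.5% rose and 20.0% fell. CDC6, which licenses replication origins, fell 2.19-fold (adjusted p = 0.00213), ASH1, a daughter-cell repressor, 2.18-fold (adjusted p = 0.0167) and RME1, a regulator that represses meiosis and promotes CLN2 expression, 2.04-fold (adjusted p = 0.00214). MCM7, of the replicative helicase, rose by 0.72 (adjusted p = 0.0102), and by 0.31 without passing once the length trend was removed (0.172, in a range from 1.60e-05). Without the arrays numbered 1, 7 of the 11 fell and 1 rose, where 28.3% of all genes fell.

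Of 7 measured genes of G2 and M, 1 rose and 2 fell, where 22.5% of all genes rose and 20.0% fell. CLB2, a mitotic cyclin gene, fell 4.52-fold, from 1065 ± 87.8 to 235.2 ± 15.04 (SD, n = 3; adjusted p = 0.000851), and its paralog CLB1 1.53-fold (adjusted p = 0.00812). BUD4, of bud site selection, rose 2.10-fold (adjusted p = 0.00374), and its call was lost with the length trend removed (0.41, 0.121, in a range from 5.26e-07). The 7 measured histone genes of S phase had changes of -0.22 to 0.32, and 0 passed by limma, adjusted or at an unadjusted p under 0.05. Near-identical histone gene copies may share signal. The summed signal of the 5 meiosis genes lay between 331.7 and 341.8 in control and between 308.3 and 345.9 in zymolyase arrays.

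The genes whose pattern over the 6 arrays was closest to that of MBP1, the gene of the 10 with the smallest adjusted p, were FYV8, TAF4 and NUP159. Their log2 signals, each centred on its own mean, differed from those of MBP1 by a root mean square of 0.07 to 0.09. FYV8 ran from 232.2 to 351.8 on the control arrays and from 598.2 to 722.8 on the zymolyase arrays. TAF4, a subunit of the general transcription factor TFIID, and NUP159, of the nuclear pore, changed by 1.20 and 1.16.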

How the data were processed

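The deposited values are signal intensity per probe set, made with MAS5 per the submitters' processing notes, with version, settings and detection calls not given in the sources used here. The table held 10928 probe sets and 7 zeros, which were set to 0.1, none in an S. cerevisiae probe set. Gene names came from the platform annotation and were matched through gene identifiers to the NCBI table of assembly R64, which gave 5498 probe sets and 5449 genes. Of all probe sets, 7244 had a single symbol, 1 had several and 3683 had none. For 47 genes with several probe sets the brightest was used. Gene lengths are those of the R64 table, where 96.3% of protein-coding genes have a multiple of 3 bases, so they are given as coding length.

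Samples were grouped by their titles. Log2 signals were fitted over all genes in R 4.3.3 by lmFit and eBayes of limma 3.58.1, the latter with its intensity trend on. Pairs of genes were compared by exact permutation over arrays, which cannot give a two-sided p under 0.1. The number of arrays limits the precision. On data simulated with 5449 genes, of which 200 were changed, the fit recovered 72% of changes of 1 and 86% of changes of 2 on the log2 scale. It also called 11 unchanged genes. The simulated errors were independent between arrays, and in the real comparison 42.5% of genes passed, so these rates need not hold for it.

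The labels number the arrays 1 to 3 in both groups. Deviations of same-numbered arrays correlated at 0.49, 0.20 and 0.41 across genes, each over 0.1. The crossed combinations of numbers 2 and 3 gave 0.23 (control 2, zymolyase 3) and 0.20 (control 3, zymolyase 2), no lower than number 2 with itself, so the data do not tell which of these arrays pair. All main results come from the fit without the array number, and the fit with the number as a block is 1 of the alternatives. The 17 alternatives covered scaling, pseudocount, filter, probe sets, trend, weights, block, gene length and left-out arrays. Members, lists, named genes and alternatives were chosen with earlier results of these data known. Named were all 10 members, up to 3 rises and 3 falls per related list and 10 fixed genes, and the 3 nearest profiles to the member with the smallest adjusted p. The lists held 12 sets from general knowledge.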

Additional observations from a re-analysis of the deposited data

How the results depend on the processing

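Over all genes the calls were 1224 higher against 1092 lower (52.8% higher), and with median centring 951 against 1463 (39.4% higher). Both counts were within 1.5 times of these under all 17 alternatives. Of the 10 Start genes, 3 passed, and 8 did with array weights and 7 without both arrays numbered 1, all of them higher. Over all genes 22.5% were higher, and 33.5% were with array weights and 32.6% without both arrays numbered 1. Without a single array 2 to 5 of the 10 passed, with 5 without control array 1. Of all 5449 genes, 851 to 1350 were then higher and 740 to 1175 lower. The array number as a block gave 4, with WHI5 lower, where 58.6% of all genes passed. Among the genes named the block also changed the calls of BCK2, CLB6 and RNR1. MBP1 passed under all 17 alternatives. PCL2 and WHI5 lay under the filter on dim genes and have no value there.

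Signs turned for small changes: CDC4 went to -0.083 with the length trend removed. With 1 array left out SWI4 ranged from -0.34 to 0.020, FAR1 from -0.44 to 0.030 and CLB5 from -0.23 to 0.020. The difference of CLN2 minus CLN1 ranged from -0.099 to 0.50 and that of PCL2 minus PCL1 from -0.23 to 0.13 with 1 array left out, and the latter was 0.29 after quantile normalization. The causes were not tested. The exact test of the pairs gives no p under 0.1, so it says nothing about their stability.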
